A study of Mus musculus with 12 samples.

Results

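The genes of creatine synthesis, creatine transport and creatine cycling were examined in RNA-seq counts of interscapular brown adipose tissue. The 9 genes were chosen by name for their roles, with earlier results of these data known. All were found among the 53379 gene IDs counted. Gatm and Gamt stand for synthesis, and Slc6a8 and Slc16a12 for transport. Ckb, Ckmt1 and Ckmt2 are the kinases, and Alpl and Phospho1 the phosphatases. The tissue came from 12-week-old C57BL/6 mice killed at zeitgeber time 9. The 12 libraries fell into 4 groups of 3: wild type at room temperature, wild type after 6 h of cold with food, Cdk7 bKO at room temperature, and Cdk7 bKO after 6 h of cold with food. Wild type (WT) mice were control littermates, and Cdk7 bKO (KO) mice carried a knockout of Cdk7 specific to brown adipose tissue. Each library was a pool of RNA from 2 mice of the same genotype and condition, 250 ng from each, so 1 value stands for 2 animals. The promoter that drives the deletion, the sex of the mice and the temperature of the cold are not given in the sources used here.

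Creatine is made in a pair of steps. Gatm makes guanidinoacetate from arginine and glycine, and Gamt methylates it with S-adenosylmethionine. Cells also take creatine up through Slc6a8, the sodium- and chloride-dependent creatine transporter, while Slc16a12 is a member of the monocarboxylate transporter family that carries creatine and guanidinoacetate. Creatine kinases transfer phosphate between ATP and creatine: Ckb is the brain-type cytosolic enzyme, Ckmt1 the ubiquitous mitochondrial enzyme and Ckmt2 the sarcomeric mitochondrial enzyme of striated muscle. In thermogenic fat, creatine is known for a futile cycle in which phosphocreatine is made and then hydrolysed, so that ATP is spent and heat is released. The hydrolysis is attributed to the tissue-nonspecific alkaline phosphatase Alpl, and Phospho1 is a phosphatase of phosphocholine and phosphoethanolamine that has also been placed near this cycle.

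The genes lie on 8 chromosomes of GRCm38, with IDs and positions from GENCODE M21. Ckb (ENSMUSG00000001270) spans chr12:111669361-111672338 on the minus strand. Alpl (ENSMUSG00000028766) spans chr4:137741733-137796384 on the minus strand. Slc16a12 (ENSMUSG00000009378) spans chr19:34668403-34747289 on the minus strand, and Slc6a8 (ENSMUSG00000019558) spans chrX:73673150-73682502 on the plus strand. Gatm (ENSMUSG00000027199) spans chr2:122594467-122611303 on the minus strand and Gamt (ENSMUSG00000020150) chr10:80258151-80261012 on the minus strand. None of these 6 genes shares exon bases with another annotated gene.

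The start-site regions are shown for the 3 genes with the largest changes, since the results below turn on them. They are the 250 bases before the first transcribed base, 5′ to 3′ on the gene's strand, from RefSeq on GRCm38.p6, and capitals mark a match to 1 of 5 searched motifs. Alpl has a pair of annotated start sites, and both are given.
Ckb at chr12:111672339-111672588 on the minus strand: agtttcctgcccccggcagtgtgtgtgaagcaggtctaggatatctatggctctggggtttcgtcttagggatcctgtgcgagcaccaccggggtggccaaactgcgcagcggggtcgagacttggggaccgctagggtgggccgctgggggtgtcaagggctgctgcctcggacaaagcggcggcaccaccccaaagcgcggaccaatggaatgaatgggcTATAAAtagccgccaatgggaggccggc
Alpl window 1 at chr4:137796385-137796634 on the minus strand: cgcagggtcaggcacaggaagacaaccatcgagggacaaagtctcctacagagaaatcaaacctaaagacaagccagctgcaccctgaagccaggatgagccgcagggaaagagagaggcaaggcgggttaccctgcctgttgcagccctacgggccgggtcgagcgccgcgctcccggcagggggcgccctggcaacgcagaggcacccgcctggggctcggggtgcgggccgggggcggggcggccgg
Alpl window 2 at chr4:137766476-137766725 on the minus strand: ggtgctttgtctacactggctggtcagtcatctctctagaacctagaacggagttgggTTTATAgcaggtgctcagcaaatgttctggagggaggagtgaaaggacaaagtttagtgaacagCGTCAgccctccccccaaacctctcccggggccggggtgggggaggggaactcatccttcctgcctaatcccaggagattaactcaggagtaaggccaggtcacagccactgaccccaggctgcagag
Slc16a12 at chr19:34747329-34747578 on the minus strand: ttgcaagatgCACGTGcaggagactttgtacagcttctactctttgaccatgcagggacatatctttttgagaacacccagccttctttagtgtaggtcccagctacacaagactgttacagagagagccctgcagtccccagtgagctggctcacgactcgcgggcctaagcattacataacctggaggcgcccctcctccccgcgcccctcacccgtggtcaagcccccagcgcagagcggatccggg
The motifs were AAGGTCA, bound by estrogen-related receptors, TGACGTCA and its part TGACG, the cyclic AMP response element and its short form, CACGTG, the E-box of clock factors, and the core promoter element TATAAA. They were searched on both strands of windows of 300 bases, which also hold 50 bases after the start, and TGACG matches include those inside TGACGTCA. The Ckb window held TATAAA at positions -28 to -23, counted with the first transcribed base as 0. Of all 32851 windows of this length, 13.62% held that motif. The first Alpl window held none of the 5 motifs. The second held TGACG at -128 to -124 and TATAAA at -192 to -187, both on the opposite strand, and 20.81% of all windows held TGACG. The Slc16a12 window held CACGTG at -240 to -235, which 7.15% of all windows held. Windows of 8 of the 9 genes were available, and Gatm, Gamt and Ckmt2 had no match. The first of 2 Ckmt1 windows held AAGGTCA at -179 to -173 and TATAAA at -31 to -26, both on the opposite strand. The Phospho1 window held TGACG at -24 to -20 and CACGTG at -215 to -210. Of all windows 4.72% held AAGGTCA and 1.79% held TGACGTCA. These matches describe letters only.

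Reads assigned to genes numbered 27609717 to 36792555 per library. Levels are given as CPM, counts scaled to a common library size by TMM factors, and as RPKM, the CPM per kilobase of exon, where genes are compared with each other. A gene was called where edgeR's quasi-likelihood test gave a Benjamini-Hochberg adjusted p under 0.05 over the 15208 genes tested, and ± after a log2 fold change is its standard error (SE). The labels were checked on Cdk7 itself, the kinase of the CDK-activating complex and of TFIIH: its level was 15.1 to 16.4 CPM in WT and 4.35 to 5.77 CPM in KO pools at room temperature, and 15.7 to 17.9 against 4.85 to 5.39 CPM in the cold. The 11 brown adipocyte markers summed to 19250 to 21730 CPM in WT and 12960 to 15990 CPM in KO at room temperature, and to 27280 to 30140 against 14290 to 15260 CPM in the cold. Ucp1 made up 54.2 to 58.2% of the WT cold sums and 26.1 to 28.3% of the KO cold sums. The other 10 markers summed to 12623 to 13229 CPM (WT) and 9352 to 11595 CPM (KO) without cold, and to 12290 to 12600 and 10567 to 10977 CPM with it. Over the 11 markers the median log2 fold change between genotypes was -0.37 without cold, with 7 called lower, and -0.24 in the cold, with 5 called lower and 6 not called. Of all tested genes 21% and 27.8% were called lower in these comparisons. Fewer cells of a type and less RNA per cell cannot be told apart in such bulk samples. The 15 skeletal muscle markers ranged from 43.2 to 1348 CPM over pools, and WT room temperature pool 2 and KO room temperature pool 6 were the richest.

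Of the 9 genes, 7 passed the filter on low counts and were tested. Ckmt1, with 0 to 7 reads, and Phospho1, with 0, did not. In WT mice, cold raised Ckb, Alpl and Slc6a8 and lowered Gatm and Gamt. In KO mice no member was called after cold. KO tissue held more Gatm, Gamt and Slc16a12 than WT at both temperatures, and in the cold it held less Ckb, Alpl and Slc6a8. At room temperature Alpl was called higher in KO, a call that ended in 5 of the settings tried. The call of the Gamt fall in WT ended in 7 settings. That of Gatm between genotypes at room temperature ended in 3, and that of Slc6a8 between genotypes in the cold in 1.

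**Figure D1:**
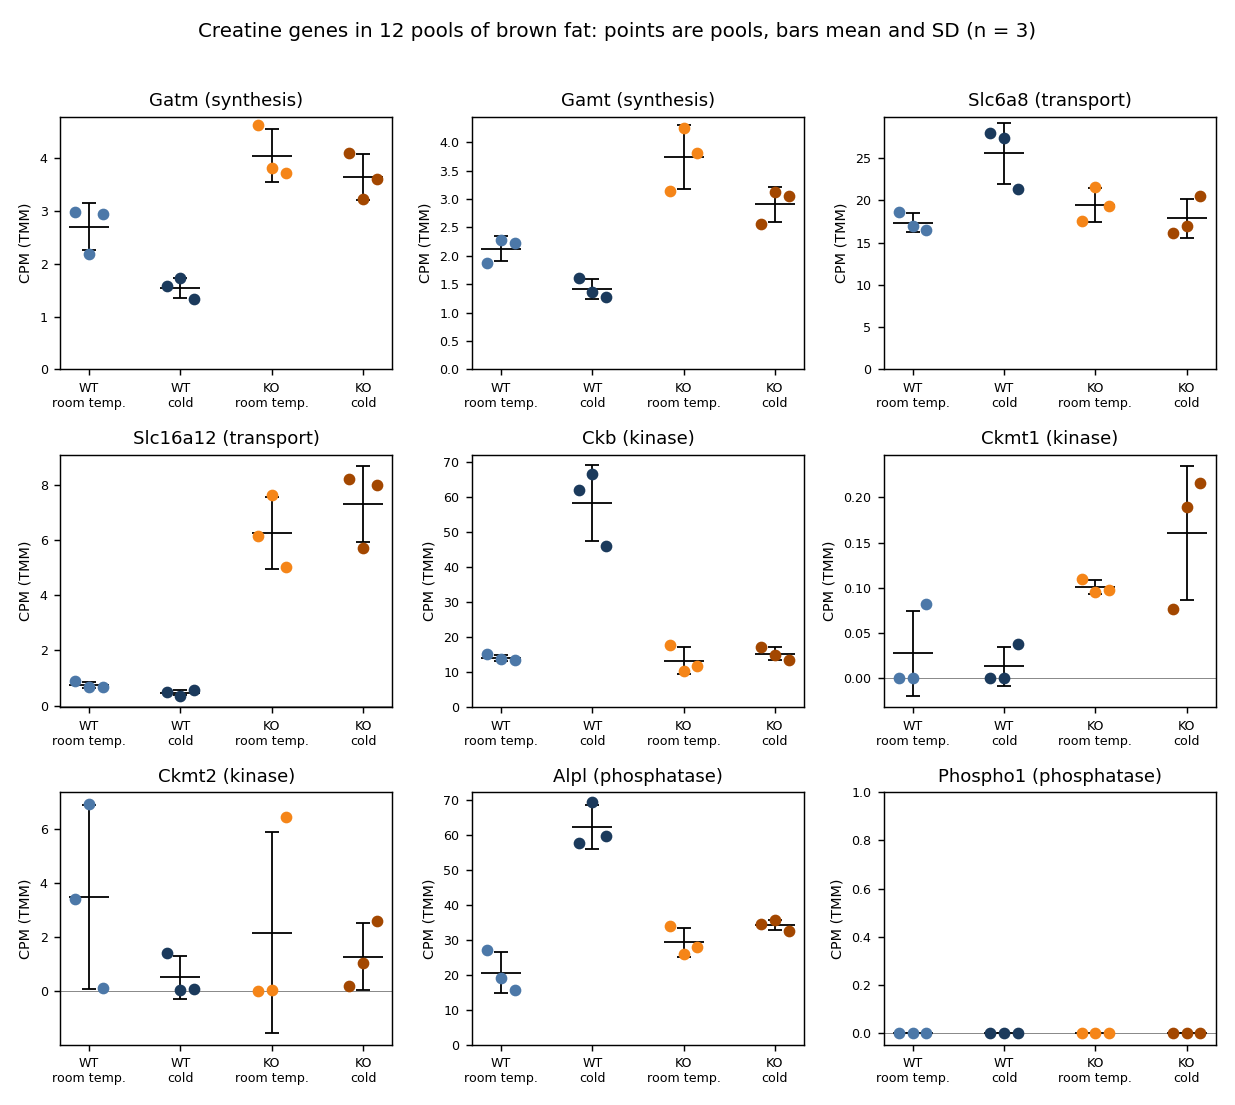
Level of each of the 9 genes (y axis, CPM, scale differs between panels) in every pool, by group (x axis). Points are pools, the horizontal bar is the mean and the whiskers the SD of 3 pools. Ckb and Alpl stand highest in the 3 WT cold pools, Slc16a12 in the 6 KO pools, and Phospho1 is at 0 in all 12.

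At room temperature 4 of the 7 tested members were called higher in KO and none lower, where 19.3% of all tested genes were called higher and 21% lower. In the cold 3 were called higher and 3 lower, against 25.9% and 27.8% of all genes. In WT mice 3 rose and 2 fell with cold, against 23% and 23.2% of all genes. In KO mice none of the 7 was called, against 7.29% of all genes called higher and 7.56% called lower. None of the 7 had an unadjusted p under 0.05 there either, as 29.4% of all genes had, and DESeq2 and limma voom also called 0. For the difference between both cold responses, 3 members were called lower and none higher, against 12.9% and 10.6% of all genes. Between genotypes the median log2 fold change over the 7 was 0.51 without cold and 1.04 with it, beside medians of 0.0033 and 0.0116 over all genes. With so few members, of different roles, these shares describe the set and do not mark it off from other genes.

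**Figure D2:**
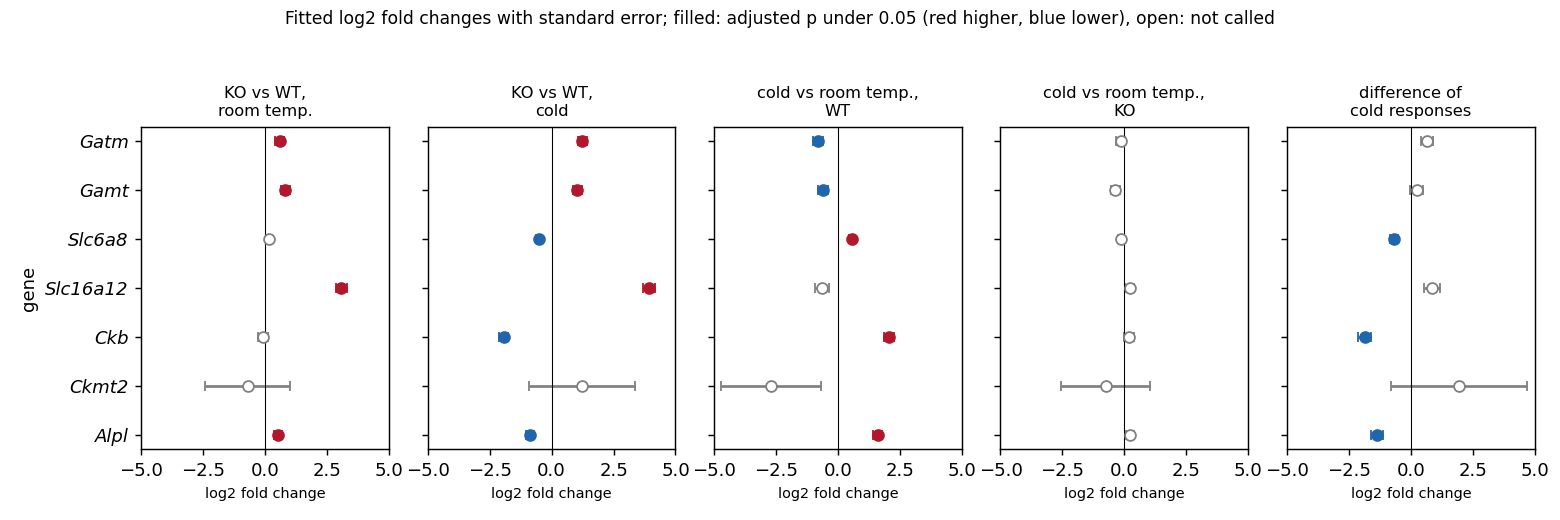
Fitted log2 fold change (x axis) with SE (whiskers) of the 7 tested genes (y axis) in 5 comparisons. Filled points were called (red higher, blue lower) and open points were not. Every point of the cold response in KO is open, and the whiskers of Ckmt2 span several log2 units throughout.

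Both synthesis genes stood higher in KO tissue and fell with cold in WT. Gatm was at 2.99, 2.19 and 2.94 CPM in the WT room temperature pools and at 4.62, 3.81 and 3.72 CPM in the KO pools. After cold it stood at 1.57, 1.72 and 1.34 CPM in WT, compared with 4.10, 3.23 and 3.61 CPM in KO. All KO pools lay above all WT pools at each temperature, and all WT cold pools below all WT room temperature pools. KO exceeded WT by a log2 fold change of 0.59 ± 0.18 without cold (edgeR adjusted p = 0.0148) and 1.24 ± 0.19 in the cold (edgeR adjusted p = 4.83e-05). With cold, Gatm fell by 0.81 ± 0.19 on the log2 scale in WT (edgeR adjusted p = 0.00251). In KO the cold difference of Gatm was -0.15 ± 0.17 (edgeR adjusted p = 0.604). The difference between those responses, 0.65 ± 0.26, was not called (edgeR adjusted p = 0.0785) but was in 4 of 21 settings. The room temperature call of Gatm ended without the 2 libraries richest in muscle transcripts (log2 fold change 0.51, edgeR adjusted p = 0.0916), without WT pool 2 (0.45, 0.0857) or without KO pool 4 (0.48, 0.0595).

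Gamt, the methyltransferase of the second step, was at 1.88, 2.28 and 2.23 CPM in room temperature WT pools, and at 3.15, 4.26 and 3.81 CPM in their KO counterparts. After cold it stood at 1.61, 1.36 and 1.27 CPM in WT, compared with 2.55, 3.12 and 3.05 CPM in KO. The genotypes did not overlap at either temperature. KO exceeded WT by a log2 fold change of 0.81 ± 0.18 at room temperature (edgeR adjusted p = 0.00208) and 1.04 ± 0.19 in the cold (edgeR adjusted p = 0.000267). Gamt fell by 0.59 ± 0.20 with cold in WT (log2, edgeR adjusted p = 0.0193), a call that ended in 7 of the settings tried. Those were the muscle markers as a covariate (edgeR adjusted p = 0.0557), the 2 muscle-rich libraries left out (0.0787), the replicate block (0.0571), and WT room temperature pool 2 (0.0645) or 3 (0.0568) or WT cold pool 2 (0.0555) or 3 (0.0711) left out. In KO all cold pools lay below all room temperature pools, yet the log2 difference of -0.36 ± 0.18 was not called (edgeR adjusted p = 0.18).

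Both synthesis genes were low: 30 to 134 reads for Gamt and 36 to 169 for Gatm per library. The summed levels of 4 marker lists stood higher in every KO pool than in every WT pool at both temperatures. The 11 macrophage markers summed to 73.5 to 98.9 CPM in WT and 238 to 312 CPM in KO at room temperature, and to 107.0 to 114 against 284 to 393 CPM in the cold. The 6 white adipocyte markers summed to 29.4 to 37.2 against 66.5 to 113 CPM, and in the cold to 22.1 to 24.7 against 51.5 to 74.8 CPM. The 10 endothelial markers summed to 623 to 749 against 875 to 887 CPM, and in the cold to 772 to 796 against 869 to 1012 CPM. The 9 smooth muscle and pericyte markers summed to 624 to 672 against 711.4 to 819.8 CPM, and in the cold to 550.2 to 560.4 against 664 to 772 CPM. No marker of these lists was at 0 in all libraries. In the same order, 10, 2, 7 and 6 markers were called higher and 0, 0, 0 and 2 lower at room temperature. In the cold these were 10, 4, 7 and 6 higher and 0, 0, 1 and 1 lower. Of all tested genes 19.3% and 25.9% were called higher, 21% and 27.8% lower. The sum of the 8 Schwann cell and nerve markers went the other way in the cold, 65.9 to 68.1 CPM in KO against 89.2 to 103.5 CPM in WT. Single markers of that list were split: of 6 tested in the cold, 3 were called higher in KO and 2 lower, with a median log2 fold change of 0.65. Sums of the 9 fibroblast markers separated at room temperature, 364.6 to 426 CPM in WT and 510.7 to 584 CPM in KO. In the cold they overlapped, 446.2 to 597 against 541.6 to 725.6 CPM. Of these markers 4 were called higher at room temperature and 5 in the cold, and 0 lower in either. The part of the 4 lists and of the fibroblast list in the higher Gatm, Gamt and Slc16a12 was not tested.

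The transporters differed from each other. Slc16a12 showed the largest fold of the 7 tested members in the comparisons of genotype. It was at 0.882, 0.683 and 0.681 CPM in room temperature WT pools, and at 6.16, 7.63 and 5.02 CPM in their KO counterparts. After cold it stood at 0.487, 0.363 and 0.559 CPM in WT, compared with 8.22, 5.72 and 7.98 CPM in KO. Every KO pool was several times above every WT pool. KO exceeded WT by 8.43-fold at room temperature (log2 3.07 ± 0.22, edgeR adjusted p = 4.34e-08). In the cold it did so by 15.3-fold (log2 3.93 ± 0.24, edgeR adjusted p = 5.13e-09). WT libraries held only 8 to 25 reads of Slc16a12 and KO libraries 154 to 325, so the WT level is the less certain side of the ratio. With cold, Slc16a12 differed by -0.64 ± 0.28 in WT, all cold pools lying below all room temperature pools, and by 0.22 ± 0.18 in KO (log2). Neither was called (edgeR adjusted p = 0.0756 and 0.456), nor was the difference between them, 0.86 ± 0.34 (edgeR adjusted p = 0.0745), which was called in 3 of 21 settings.

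Slc6a8, the main creatine importer, changed less. It was at 18.6, 16.9 and 16.5 CPM in room temperature WT pools, and at 17.5, 21.6 and 19.3 CPM in their KO counterparts, with overlapping groups. After cold it stood at 28.0, 27.4 and 21.3 CPM in WT, compared with 16.2, 17.0 and 20.5 CPM in KO. The WT cold pools lay above the KO cold pools and above the WT room temperature pools, the third WT pool by the least. Slc6a8 rose by a log2 fold change of 0.56 ± 0.12 with cold in WT (edgeR adjusted p = 0.00104). It differed by -0.12 ± 0.12 in KO (edgeR adjusted p = 0.538). The difference between the responses was -0.68 ± 0.17 (edgeR adjusted p = 0.00807), and KO was below WT in the cold by a log2 fold change of -0.52 ± 0.12 (edgeR adjusted p = 0.00166). Both calls were kept with median-ratio size factors, DESeq2 and limma voom but not without a scaling for composition. With library totals alone they were -0.47 (edgeR adjusted p = 0.069) and -0.08 (edgeR adjusted p = 0.586), and the median of all genes then moved to 0.235 and 0.449. On that scale Slc6a8 was also called higher in KO without cold (0.39, edgeR adjusted p = 0.0207).

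Ckb carried the largest cold response among the members called. It was at 15.1, 13.6 and 13.4 CPM in room temperature WT pools, and at 17.8, 10.4 and 11.7 CPM in their KO counterparts. After 6 h of cold it stood at 62.1, 66.8 and 46.0 CPM in WT, compared with 17.3, 14.8 and 13.6 CPM in KO. The 3 WT cold pools stood above all other pools, and the other 3 groups overlapped. The rise with cold in WT was 4.16-fold (log2 2.06 ± 0.20, edgeR adjusted p = 6.39e-06). In KO it was 0.19 ± 0.19 on the log2 scale (edgeR adjusted p = 0.556). The difference between both responses was -1.86 ± 0.27 (edgeR adjusted p = 0.000855). KO was below WT in the cold (log2 fold change -1.94 ± 0.19, edgeR adjusted p = 9e-06), whereas at room temperature the log2 fold change was -0.08 ± 0.20 (edgeR adjusted p = 0.788). In the settings tried, the difference between the responses ran from -2.01 to -1.59 and stayed called.

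Ckmt2 was not called in any comparison of the fit described above. With no filter beyond 1 read it was called in all 5, with log2 fold changes of -0.74 (room temperature, edgeR adjusted p = 0.00853) and 1.25 (cold, 0.000128) for KO against WT. The cold response was then -2.72 in WT (edgeR adjusted p = 3.14e-21) against -0.73 in KO (0.0309), and the test of their difference gave 1.98 (3.55e-06). The WT pools overlapped, with 89, 244 and 5 reads without cold and 38, 1 and 2 with it. With the filter the WT log2 fold change was nearly the same, -2.70, at an edgeR adjusted p of 0.315. The small p-values of the unfiltered fit are therefore not read as a measure of the spread between pools. Ckmt2 ranged from 0 to 244 reads within and across groups, and the SE of its log2 fold changes ran from 1.71 to 2.74. The 3 pools with the most Ckmt2 were the 3 with the most skeletal muscle transcripts. The 5 pools with at most 5 Ckmt2 reads had muscle marker sums of 43.2, 55.7, 71.6, 76.7 and 170.5 CPM. KO cold pool 1 departed from this order, with 8 Ckmt2 and 64 Ckm reads at a sum of 47.1 CPM, the second lowest. Of the 15 markers in the sum, Myl1 was called lower in KO at room temperature (log2 -1.52 ± 0.28, edgeR adjusted p = 0.00238). The other 14 were not called there. Whether low sums follow muscle content alike in both genotypes was not tested. The pools with 89, 198 and 244 reads had sums of 480, 1348 and 1041 CPM. Ckm, the cytosolic creatine kinase of muscle, followed the same pools, with 0 to 4151 reads, and shares 15.5% of its exon bases with an antisense gene. In the 8 pools with at least 40 Ckm reads, a minimum set after the values were seen, Ckmt2 reads were 4.8 to 12.8% of Ckm reads. In the other 4 pools Ckmt2 had at most 2 reads. Over the 12 libraries the genes most like Ckmt2 among 10294 compared were Ttn (Pearson r of log2 CPM 0.988), Tnni2 and Tnnc2, which encode titin and fast skeletal troponins. All points share the libraries and their muscle content. With the muscle markers as a covariate, the cold difference in KO turned from -0.76 ± 1.81 to 1.33 (log2, edgeR adjusted p = 0.0213), and KO against WT at room temperature went from -0.71 ± 1.71 to -0.97 (edgeR adjusted p = 0.0222). An antisense gene, 1700119I11Rik, shares 84 exon bases with Ckmt2 and had 0 to 1 reads.

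**Figure D3:**
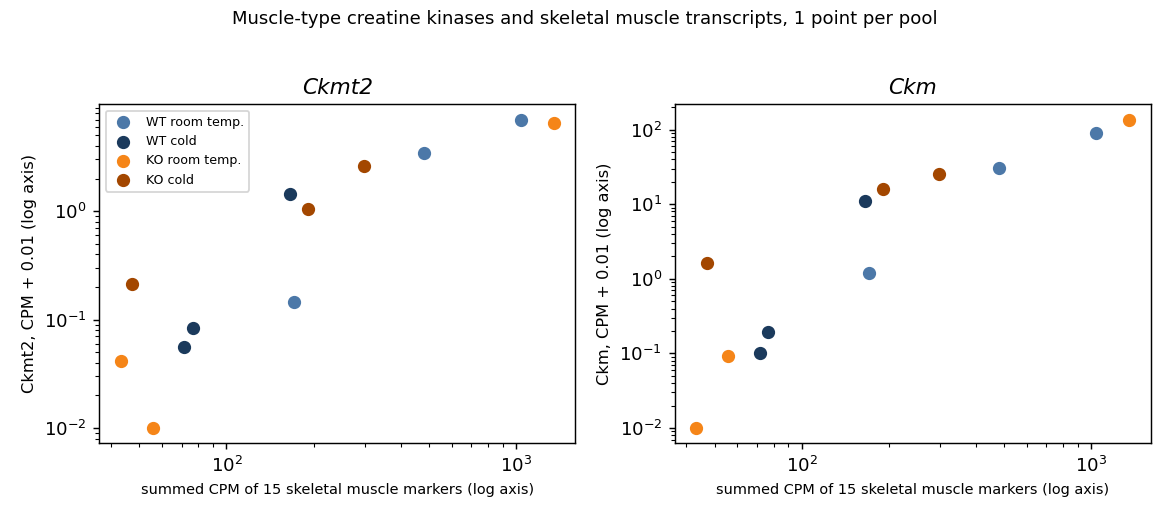
CPM + 0.01 of Ckmt2 (left) and Ckm (right) on a log y axis against the summed CPM of 15 skeletal muscle markers on a log x axis, 1 point per pool, coloured by group. Both kinases are highest in the pools with the largest sums, up to 1348 CPM, and KO cold pool 1, at 47.1 CPM, lies above the other pools with low sums.

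Ckmt1, the ubiquitous mitochondrial kinase, was near its limit of detection. It had 0, 0 and 3 reads in WT at room temperature, 4, 3 and 3 in KO at room temperature, 0, 0 and 1 in WT cold, and 3, 7 and 7 in KO cold. Every KO pool had at least 3 reads and 4 of the 6 WT pools had 0, but the gene was left out of the test and no fold is given. With no filter beyond 1 read, Ckmt1 entered the test and was called higher in KO than in WT in the cold. That call rests on 0 to 1 reads per WT pool and 3 to 7 per KO pool. Per length, Ckb held 81.8 to 99.7% of the RPKM of the 4 kinases in WT cold pools. In the other groups its share ran from 11.5 to 89.6% (WT room temperature), 7.35 to 98.8% (KO room temperature) and 30.9 to 89.2% (KO cold). Those spreads moved with Ckm, which took up to 84.7% in the muscle-rich KO pool 6, so the shares were not compared between groups.

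**Figure D4:**
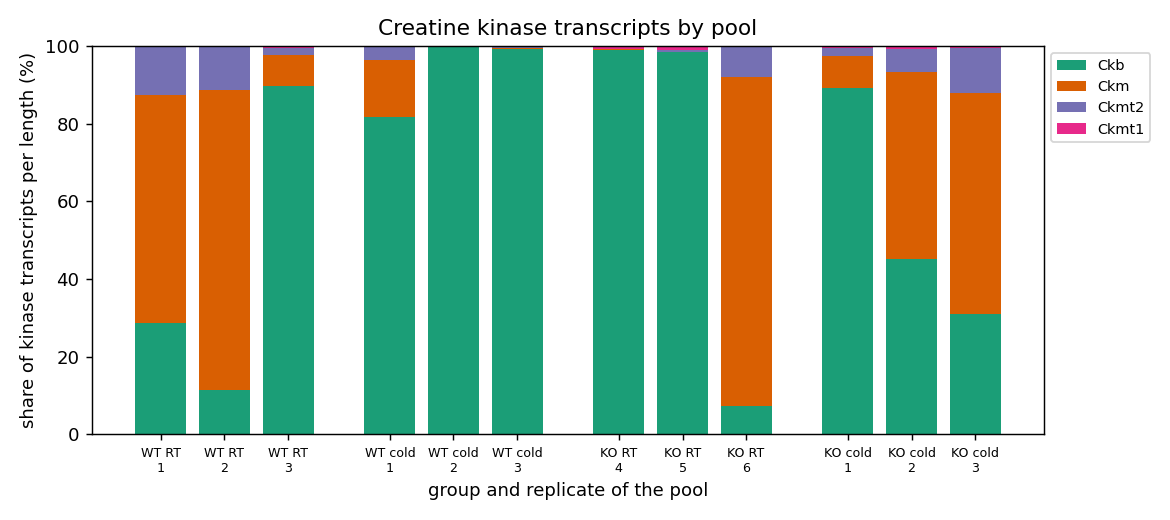
Share of the summed RPKM of Ckb, Ckm, Ckmt2 and Ckmt1 (y axis, percent, stacked to 100) in each pool (x axis, group and replicate). Ckb fills 81.8% or more of each WT cold pool, and Ckm dominates the pools rich in muscle transcripts.

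Alpl, the phosphatase, followed Ckb in WT with a smaller fold. It was at 27.1, 19.0 and 15.8 CPM in room temperature WT pools, and at 33.9, 25.9 and 27.9 CPM in their KO counterparts. After cold it stood at 57.6, 69.4 and 59.7 CPM in WT, compared with 34.5, 35.7 and 32.6 CPM in KO. The WT cold pools stood above all others, and the genotypes overlapped at room temperature. The rise with cold in WT was 3.03-fold (log2 1.60 ± 0.17, edgeR adjusted p = 6.99e-06), against a log2 difference of 0.23 ± 0.16 in KO (edgeR adjusted p = 0.391). The difference between the responses was -1.37 ± 0.23 (edgeR adjusted p = 0.00136). In the cold KO was below WT (log2 fold change -0.86 ± 0.16, edgeR adjusted p = 0.000705), and by -0.42 with library totals alone (edgeR adjusted p = 0.01). At room temperature it was above WT (0.51 ± 0.16, edgeR adjusted p = 0.0257), and this call ended in 5 settings. They were the fit on the 6 libraries compared (edgeR adjusted p = 0.0858), the muscle-rich libraries left out (0.135), and WT pool 2 (0.0979), WT pool 3 (0.0811, log2 fold change 0.34) or KO pool 4 (0.0988) left out. The 2 start-site windows of Alpl cannot be told apart in counts per gene.

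Phospho1 had 0 reads in all 12 libraries. In GENCODE M21, 89.6% of its 2029 exon bases, 1818 in all, also belong to exons of Zfp652 on the same strand, and Abi3 on the other strand shares 1708. Zfp652 had 1804 to 2977 reads and Abi3 190 to 505. Reads over shared bases are assigned to no gene in a count that leaves out ambiguous reads, and the annotation used for the counting is not given in the sources used here. Whether this sets the count of 0 was not tested, so its level cannot be read from these files.

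The order of levels per length differed between the groups. In WT cold pools Ckb (20.1 ± 3.76 RPKM, SD, n = 3) and Alpl (15.4 ± 1.56) led and differed by less than their summed SDs, followed by Slc6a8 (4.91 ± 0.703), Gamt (0.979 ± 0.124), Gatm (0.515 ± 0.0644) and Slc16a12 (0.113 ± 0.0237). In KO cold pools Alpl (8.49 ± 0.385 RPKM) led before Ckb (5.25 ± 0.658) and Slc6a8 (3.43 ± 0.446), and Slc16a12 (1.75 ± 0.331) stood within the summed SDs of Gamt (2.01 ± 0.214). At room temperature Alpl and Ckb did not separate in WT (5.11 ± 1.44 and 4.85 ± 0.312 RPKM). In KO, Alpl (7.25 ± 1.02) was above Ckb (4.58 ± 1.36) by little more than the summed SDs. Ckmt2 is left out of this order because its SD was at least 95.7% of its mean in each group.

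Among 10293 tested genes, the pattern most like Ckb over the 12 libraries was that of Arpc5l (Pearson r of log2 CPM 0.984), then Atf5 and Hmox2. Mrpl20 (0.974), Ddx47 and Casc3 were most like Alpl, and Ndrg1 (0.986), Ephx1 and Cmip most like Slc16a12. For Gatm these were Fez1 (0.971), Slc50a1 and Rasa3, for Gamt Daam2 (0.977), Ilk and Syde1, and for Slc6a8 Pes1 (0.954) and Rala. The libraries share their groups, so such likeness follows from any common group pattern.

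A set of 5 lists of related genes places the members in their pathway, and from each list the gene with the smallest p among those reported is named for each comparison. The counts stand beside these shares of all tested genes called higher and lower: 19.3% and 21% between genotypes without cold, 25.9% and 27.8% with cold, 23% and 23.2% in the WT cold response, 7.29% and 7.56% in that of KO, and 10.6% and 12.9% where both responses were compared. The first holds the supply of arginine, glycine and methyl groups for creatine. Of its 18 tested genes, 3 stood higher and 5 lower in room temperature KO tissue than in WT, and after cold 7 stood higher and 5 lower. Shmt1, the cytosolic serine hydroxymethyltransferase that makes glycine, led both, at log2 fold changes of -1.01 ± 0.10 (edgeR adjusted p = 1.42e-06) and -1.74 ± 0.10 (edgeR adjusted p = 3.82e-09). With cold 4 rose and 6 fell in WT, led by Mtr, methionine synthase (-0.92 ± 0.11, edgeR adjusted p = 4.8e-06). In KO 2 rose and 1 fell, led by Shmt1 (-0.71 ± 0.10, edgeR adjusted p = 0.000225). The responses differed upwards for 2 and downwards for 2, led by Psph, phosphoserine phosphatase (0.84 ± 0.16, edgeR adjusted p = 0.00135). Another gene's exons cover 10.4% of the exon bases of Psph on the other strand and 4.7% of those of Shmt1.

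The second list holds partners of the energy shuttle: Ckm, adenylate and nucleoside diphosphate kinases, carriers of adenine nucleotides and phosphate, voltage-dependent anion channels and ATP synthase subunits. Of 15 tested, 1 stood higher and 9 lower in room temperature KO tissue than in WT, and after cold 1 stood higher and 10 lower, where 21% and 27.8% of all genes stood lower. The list medians were -0.35 and -0.26 (log2), against 0.0033 and 0.0116 over all genes. Ak3, a mitochondrial adenylate kinase, led at room temperature (log2 -0.48 ± 0.08, edgeR adjusted p = 0.000191), and Vdac2, a channel of the outer membrane, in the cold (-0.68 ± 0.08, edgeR adjusted p = 2.67e-06). With library totals alone the room temperature value of Ak3 was -0.27 (edgeR adjusted p = 0.0686), and 22.9% of its exon bases are shared with genes on the other strand. Cold called 1 higher and 1 lower in WT, led by Vdac2 (0.61 ± 0.08, edgeR adjusted p = 9.2e-06), and 0 higher and 1 lower in KO, Ak3 (-0.35 ± 0.08, edgeR adjusted p = 0.00819). Vdac2 was also the 1 gene whose responses differed (-0.68 ± 0.11, edgeR adjusted p = 0.000516). Ak1, the cytosolic adenylate kinase, was lower in KO at room temperature (-0.83 ± 0.22, edgeR adjusted p = 0.012) and in the cold (-0.67 ± 0.22, edgeR adjusted p = 0.0262). Those calls ended in 1 and 7 of the settings tried.

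The third list holds phosphatases, choline and vitamin B6 enzymes and phosphate carriers that relate to Alpl and Phospho1. Of 9 tested, 1 stood higher and 3 lower in room temperature KO tissue than in WT, and after cold 1 stood higher and 5 lower. Pdxk, pyridoxal kinase, was among those lower without cold (-0.42 ± 0.08, edgeR adjusted p = 0.000702) and led those in the cold (-0.86 ± 0.08, edgeR adjusted p = 4.1e-07). With library totals alone the first value was -0.20 (edgeR adjusted p = 0.129). An antisense gene shares 39% of the exon bases of Pdxk, so its values are uncertain if strand was not used. In WT 5 rose and 2 fell with cold, led by Phospho2, a phosphatase related to Phospho1 (1.30 ± 0.09, edgeR adjusted p = 1.63e-08). In KO 3 rose and 2 fell, led by Chka, choline kinase alpha (1.35 ± 0.13, edgeR adjusted p = 4.71e-06). The responses differed for 2, both downwards, led by Phospho2 (-0.70 ± 0.13, edgeR adjusted p = 0.00106). Genes on the other strand share 7% of the exon bases of Phospho2 and 2% of those of Chka.

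The fourth list holds other heat-producing cycles and uncoupling. Of 11 tested, 2 stood higher and 7 lower in room temperature KO tissue than in WT, and after cold 1 stood higher and 6 lower, again beside 21% and 27.8% of all genes lower. The list medians were -0.62 and -0.60 (log2). Dgat2, which completes triglyceride synthesis, led the first (-1.61 ± 0.16, edgeR adjusted p = 4.96e-06). Ucp1, the uncoupling protein, led the second (-1.98 ± 0.12, edgeR adjusted p = 6.86e-09). Ucp1 was at 6627 to 8501 CPM in WT and 3608 to 4395 CPM in KO at room temperature, and at 14790 to 17540 against 3723 to 4283 CPM in the cold. In WT 4 rose and 4 fell with cold, led by Dgat1 (1.42 ± 0.13, edgeR adjusted p = 2.6e-07). In KO 0 rose and 3 fell, led by Lipe, hormone-sensitive lipase (-0.93 ± 0.11, edgeR adjusted p = 3.01e-05), which shares 15.6% of its exon bases with an antisense gene. The responses differed upwards for 1 and downwards for 4, led by Ucp1 (-1.10 ± 0.17, edgeR adjusted p = 0.000371). The smaller cold difference in KO was thus measured for Ucp1 as well as for Ckb, Alpl and Slc6a8.

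The fifth list holds relatives of both transporters. Of 13 tested, 4 stood higher and 2 lower in room temperature KO tissue than in WT, and after cold 3 stood higher and 3 lower. Slc16a7, a monocarboxylate transporter, led the first (-1.90 ± 0.17, edgeR adjusted p = 1.03e-06) and Slc6a13, a transporter of GABA and taurine, the second (2.41 ± 0.33, edgeR adjusted p = 1.54e-05). With cold 3 rose and 5 fell in WT, led by Slc16a7 (-1.83 ± 0.17, edgeR adjusted p = 7.23e-07). In KO 0 rose and 1 fell, Slc6a13 (-0.94 ± 0.25, edgeR adjusted p = 0.0182), a call lost without KO room temperature pool 4 (edgeR adjusted p = 0.0889), KO cold pool 2 (0.0797) or KO cold pool 3 (0.0572). The responses differed upwards for 2 and downwards for 2, led by Slc16a7 (1.33 ± 0.24, edgeR adjusted p = 0.00142). The sign of Slc16a7 in the KO to WT contrast was thus opposite to that of its family member Slc16a12.

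**Figure D5:**
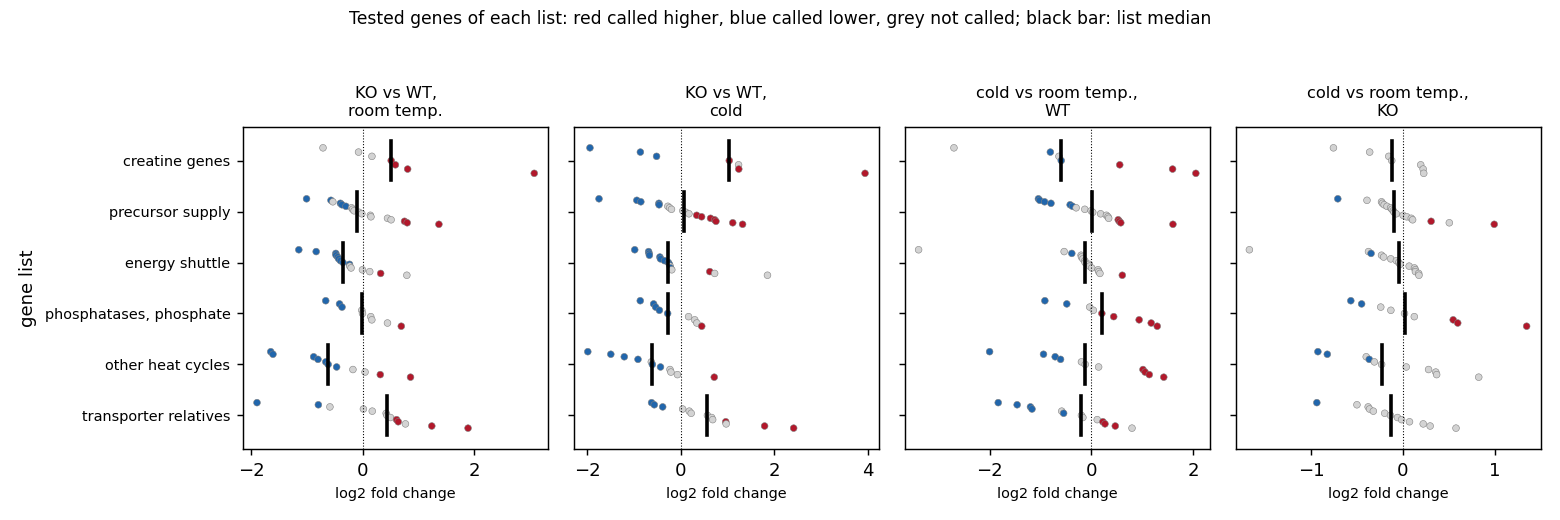
Log2 fold change (x axis, scale differs between panels) of every tested gene of the creatine set and of the 5 related lists (y axis) in 4 comparisons. Red points were called higher, blue lower and grey not, and the black bar is the list median, for example 0.51 for the creatine genes at room temperature.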

How the data were processed

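RNA from 12 pools of mouse brown fat was sequenced, and per the labels each pool joined 2 mice. The deposited values are raw counts of reads per Ensembl gene. Per the submitters' processing notes the authors used STAR, HTSeq and build GRCm38; versions are not given in the sources used here. File names refer to reverse strand counting, which is stated nowhere else, so the share of exon bases shared with other genes is given for the named genes where it is largest. HTSeq summary lines, left out of library sizes, held 1.64 to 2.26% (outside genes), 1.07 to 1.37% (ambiguous), 1.12 to 1.86% (unaligned) and 26.6 to 30.2% (several alignments) of reads.

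All 12 libraries were fitted with edgeR 4.0.16 under R 4.3.3: filterByExpr by group kept 15208 genes and removed 38171, TMM factors were 0.798 to 1.18, the common coefficient of variation was 13.6%, and robust quasi-likelihood tests were adjusted by Benjamini-Hochberg with a threshold of 0.05. An SE was taken as the size of the log2 fold change over the root of its F statistic. Whether pools came from separate litters is not stated. RPKM used exon lengths of GENCODE M21. Alternatives used DESeq2 1.42.0, limma 3.58.1, other scalings and filters, covariates and left-out libraries.

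The members and lists were chosen with earlier results of these data known. Named pathway genes are those with the smallest p per list and comparison, up to 3, and Ckm, Ak1 and Ucp1 whatever their result. The text names the first of each, and the stability counts cover 35 genes, Cdk7 included. Some genes that the rule gives are not reported here, none of them for the stability of its call.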

Additional observations from a re-analysis of the deposited data

Results flagged for a closer look

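The cold response differed between KO and WT, by the edgeR test of the difference itself, for 3 creatine genes, in log2 units: Ckb (-1.86), Alpl (-1.37) and Slc6a8 (-0.68). For each the WT pools rose with cold and the KO response was not called.

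Among the named pathway genes it differed downwards for Ucp1 (-1.10), Dgat1 (-1.07), Slc16a10 (-0.79), Shmt1 (-0.74), Phospho2 (-0.70), Gk (-0.69), Vdac2 (-0.68), Mtrr (-0.67), Pdxk (-0.45) and Slc6a6 (-0.42). It differed upwards for Slc16a7 (1.33), Dgat2 (1.18), Slc6a9 (1.15), Psph (0.84) and Mtr (0.75). Slc6a9 shares 30.2% of its exon bases with genes on the other strand, Pdxk 39%, Psph 10.4% and Phospho2 7%. These genes were named for small p, so their number is no measure of how common such differences are. The call of Gk ended in 13 of 21 settings, that of Slc6a9 in 7, that of Slc6a6 in 3, that of Pdxk in 2 and those of Slc6a8, Mtrr and Phospho2 in 1 each.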

How the results depend on the processing

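With 21 to 23 settings tried per comparison, 13 of the 18 called values of creatine genes kept their call in each setting that gave one. Of the 17 uncalled values, 8 stayed uncalled. Of the 104 called values of other named genes, 62 kept their call. An uncalled value that changed sign was counted as unchanged. KO against WT at room temperature called 4 creatine genes, but 2 without the 2 libraries richest in muscle transcripts, and 2 to 4 with 1 library left out, the 2 without WT room temperature pool 2 or KO room temperature pool 4. Cold in KO called 0, but 1 (Ckmt2) with no filter beyond 1 read and 1 (Ckmt2) with muscle markers as a covariate, where it reversed to 1.334. With library totals alone, which moved the median of all genes to 0.449 in KO against WT in the cold, 3 named genes called lower there reversed without being called: Atp5c1 (0.094), Chkb (0.156) and Dgat2 (0.004). Chkb shares 50.7% of its exon bases with another gene on its strand. Without the muscle-rich libraries the genes called fell from 6138 to 3566 (KO against WT at room temperature), from 2258 to 1214 (cold in KO) and from 3581 to 1903 (difference of responses). Cold in KO called 1476 with library totals alone and 4092 with limma voom. The cause was not tested. Deviations of same-numbered pools correlated at -0.19 to 0.229 (WT) and -0.267 to -0.101 (WT cold with KO cold). Those of differently numbered pools correlated at -0.316 to 0.322 and -0.068 to 0.198. With 3 pools a group, these values cannot show whether replicate numbers pair the pools. With the replicate block 6 creatine genes were called for KO against WT in the cold and 4 for cold in WT, against 6 and 5. Depth limits Ckmt1 and the WT level of Slc16a12.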
